A study of Mus musculus with 4 samples.

Results

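The NMDA receptor subunit genes of the mouse brain, Grin1, Grin2a, Grin2b, Grin2c, Grin2d, Grin3a and Grin3b, were found by their symbols among the measured features, and all 7 were present among 19465 genes. They were followed over the areas of 4 coronal brain sections, and then between the diets of the dams. The sections came from wild-type male C57BL/6J pups at postnatal day 21, 1 section a pup, and no transgene or deletion was involved. Dams of the MF group received 2 mg/kg folic acid (FA) in the diet and dams of the HF group received 20 mg/kg, from 2 weeks before mating through pregnancy and lactation, and each group held 2 sections. Visium-FFPE reads each transcript with gene-specific probe pairs at array spots, and a spot is a small patch of tissue that can hold several cells of different types. The sources used here do not say whether the pups of a group had different dams, so the spread between sections may be smaller than the spread between litters.

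NMDA receptors are glutamate-gated cation channels that let calcium into the neuron when ligand binding and depolarisation coincide, and they are known for their part in synaptic plasticity. Every receptor needs the glycine-binding subunit encoded by Grin1. The Grin2 genes encode the glutamate-binding subunits that set the speed of the current and its block by magnesium, and the Grin3 genes encode glycine-binding subunits that lower calcium entry. In the rodent forebrain Grin2b is abundant from birth, and Grin2a rises during the postnatal weeks.

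The genes were located in the GENCODE annotation of the mm10 mouse genome. Grin1 lies on chromosome 2 (25291181 to 25319187, minus strand) and overlaps the antisense transcript Grin1os. Grin2a lies on chromosome 16 (9567898 to 9995560, minus), Grin2b on chromosome 6 (135713233 to 136173511, minus) and Grin2c on chromosome 11 (115249169 to 115267243, minus). Grin2d lies on chromosome 7 (45831883 to 45878378, minus) and overlaps Kdelr1. Grin3a lies on chromosome 4 (49661611 to 49845744, minus) and overlaps Ppp3r2, and Grin3b lies on chromosome 10 (79970715 to 79977190, plus) and overlaps Tmem259 on the other strand. RefSeq promoters (build GRCm38.p6) were at hand for 4 of the 7 members. Those of Grin1 and Grin2c are shown because these genes had their highest levels in different areas, CA1 of the hippocampus and the Prkcd area of the thalamus. The 250 bases before each start are given 5′ to 3′ on the gene's own minus strand, chr2:25319188-25319437 for Grin1 and chr11:115267244-115267493 for Grin2c, with the GC-box letters GGGCGG in capitals.
Grin1: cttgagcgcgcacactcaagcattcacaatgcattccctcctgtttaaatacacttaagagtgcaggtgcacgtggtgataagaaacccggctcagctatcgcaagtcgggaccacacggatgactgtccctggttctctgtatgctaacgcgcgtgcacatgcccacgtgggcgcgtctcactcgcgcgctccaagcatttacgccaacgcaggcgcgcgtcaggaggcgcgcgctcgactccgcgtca
Grin2c: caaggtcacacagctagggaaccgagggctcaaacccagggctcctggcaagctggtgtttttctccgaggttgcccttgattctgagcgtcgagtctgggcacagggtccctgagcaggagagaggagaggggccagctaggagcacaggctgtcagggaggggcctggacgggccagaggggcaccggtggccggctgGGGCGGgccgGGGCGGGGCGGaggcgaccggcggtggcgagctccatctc
The letters GGGCGG, searched on both strands, occurred 3 times in the Grin2c stretch, starting 50, 40 and 35 bases before the start, and had 0 matches in that of Grin1. Of 32851 promoters of the same length, 32.7% held at least 1 match. The Grin1 stretch held 27 CpG dinucleotides at 58.8% GC and the Grin2c stretch held 15 at 68.8% GC, against a median of 6 CpG and 52.4% GC over all promoters. A match describes these letters only.

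The 4 sections held 90098381, 42423648, 34983708 and 42507273 unique molecular identifiers (UMIs) in MF 1, MF 2, HF 1 and HF 2, so MF 1 was the deepest. Of 13470 spots, 13452 passed the filter of 500 UMIs and 250 genes. A total of 2472 spot barcodes occurred in all 4 sections, since barcodes name array positions and not cells. Most spots fell into 6 regions, with the members and their pathway kept out of the clustering. CTX stands for the cortex, HP for the hippocampus and TH for the thalamus. HY stands for the hypothalamus, STR for the striatum and WM for white matter. Outside these regions lay the L1 and meninges area (992 spots), the Gpr101 area (523), the medial habenula (228) and the choroid plexus (49). The Gpr101 area matched no region. Finer areas within regions were called by their leading genes. The sums of HP and CTX also held clusters left unnamed. Those in HP were led by Ttr and Gpr151 (109 spots) and by Eln and Acta2 (72 spots). Those in CTX held 238 and 175 spots. The cortical areas were L2-3 (Stard8, Lamp5), L4 (Rorb, Rspo1), L5 (Fezf2, Bcl6), L6 (Syt6, Foxp2), deep L6 (Ccn2, Cplx3) and OLF (Cyp26b1, Rxrg, Nr2f2), and OLF held as many listed hypothalamic as olfactory markers among its 50 leading genes, 5 of each. The hippocampal areas were CA1 (Wfs1, Fibcd1), CA2-3 (Cpne4, Iyd), DG (Prox1, C1ql2) and the HP matrix between them, which was led by Thbs4 and Ndnf and held 8 white matter markers in 1 of its 2 clusters. The thalamic areas were led by Prkcd, by Gbx2 or by the reticular markers Six3 and Pvalb. The reticular area covered 57, 48, 41 and 110 spots in MF 1, MF 2, HF 1 and HF 2, so HF 2 held the most of it. The sources used here do not give the coronal plane of each section, so a difference in plane and a difference between diets cannot be told apart with 2 sections a diet. Levels are given as counts per 1000000 UMIs (CPM) of the summed spots of an area, always in the order MF 1, MF 2, HF 1 and HF 2. Probe pairs differ in efficiency, so genes are set against each other only in the Grin2a to Grin2b ratio and the Grin2 shares. In such sums, fewer cells of a type and less RNA per cell cannot be told apart.

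**Figure D1:**
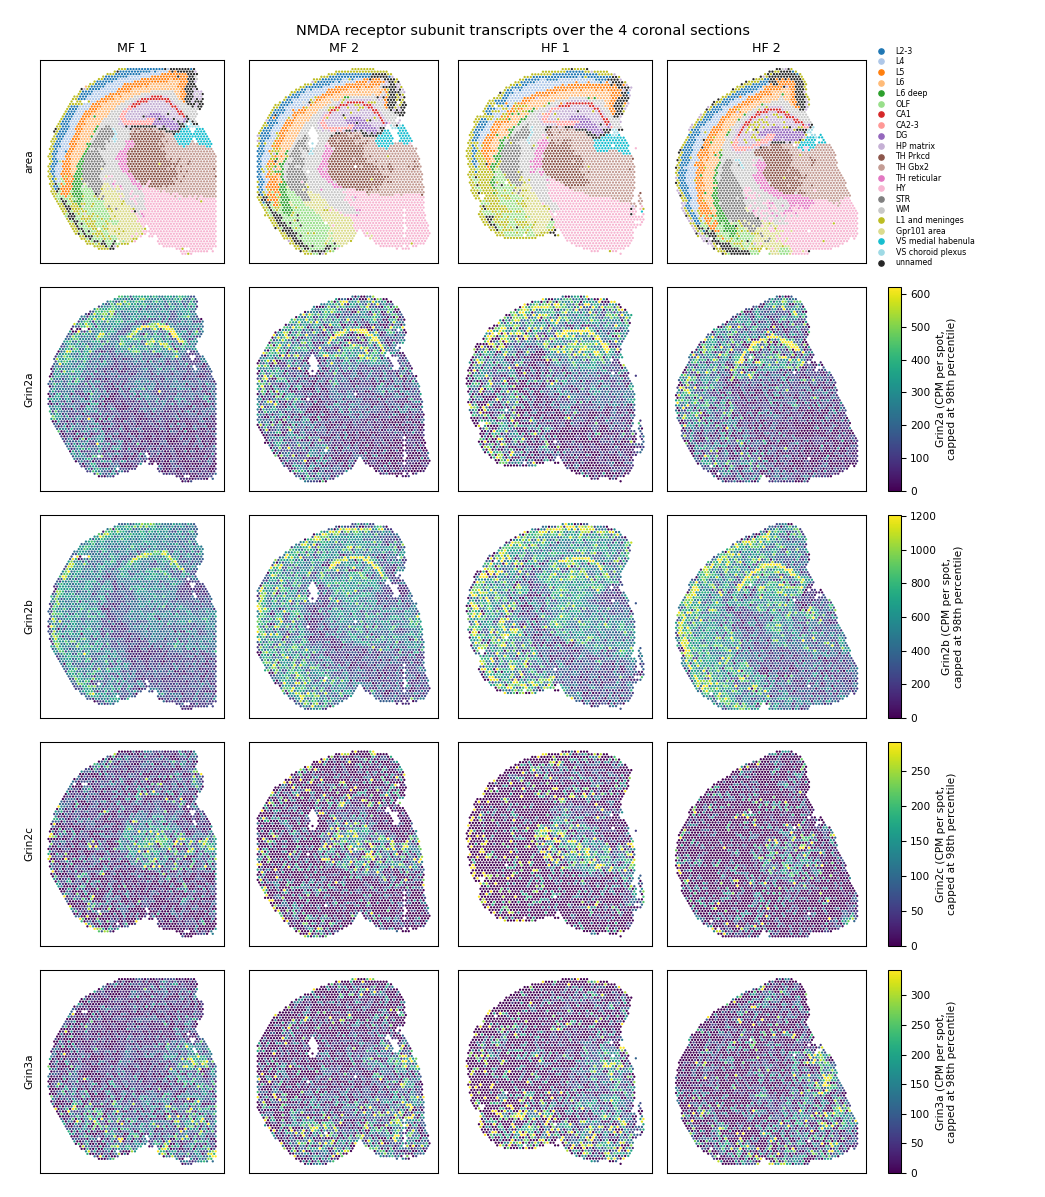
Each column is 1 section and each point is 1 spot. The top row colours spots by area and the lower rows by the CPM of Grin2a, Grin2b, Grin2c and Grin3a, capped at the 98th percentile over all spots. Grin2a and Grin2b trace the CA1 band in all 4 sections, and Grin2c is brightest over the thalamus. Grin3a is brightest over the Gbx2 area of the thalamus, the hypothalamus and the ventral cortex.

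Grin1, the subunit every receptor needs, was found in all 20 areas, with 171037 UMIs in all. Its level was 1387, 1533, 1471 and 1623 CPM in CA1 and 321, 235, 180.2 and 163 CPM in the choroid plexus, and the mean over sections was 6.7-fold higher in CA1. CA1 was the highest area in 4 of 4 sections and did not overlap the next area, CA2-3, at 1132, 1129, 1080.3 and 1275 CPM. L2-3, L4 and L5 followed with means between 1011 and 1091 CPM, and neighbours in this stretch overlapped in range. White matter and the reticular area were low, at a mean ± SD of 504 ± 39 and 585 ± 40.4 CPM (n = 4 sections). Between the 6 regions, tested with edgeR's quasi-likelihood test with the section as a block, each region against the mean of the other 5, Grin1 was higher in CTX (log2 fold change 0.52, SE 0.03, adjusted p = 3.69e-15) and in HP (0.39, SE 0.03). It was lower in HY (-0.47, SE 0.03) and in WM (-0.66, SE 0.04).

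Grin2a and Grin2b, which encode the main glutamate-binding subunits of the forebrain, had the same leading area. Grin2a was at 702, 850.1, 857 and 828 CPM in CA1, and Grin2b at 1044, 1372, 1272 and 1441 CPM. For both genes CA1 was the highest area in 4 of 4 sections, and its range did not overlap that of the next area. The next area for Grin2a was DG, at 381, 400.1, 447 and 359 CPM, and the next for Grin2b was L2-3, at 757, 834, 963 and 948 CPM. The lowest mean of Grin2a was in the hypothalamus (66.2 ± 3.63 CPM, SD, n = 4), 12.2-fold below CA1. The lowest of Grin2b was in the choroid plexus (152 ± 32.5 CPM), 8.46-fold below CA1, with the hypothalamus at 265 ± 29 CPM. Between regions Grin2a was higher in HP (log2 fold change 1.46, SE 0.05, edgeR adjusted p = 2.59e-21) and CTX (0.80, SE 0.05), and lower in HY (-1.73, SE 0.06), WM (-0.46) and TH (-0.27). The call in TH was lost without section HF 2, where the log2 fold change was -0.17, under the 1.2-fold that a call needs. Grin2b was higher in HP (0.70, SE 0.04), CTX (0.63, SE 0.04) and STR (0.38, SE 0.05), and lower in HY (-1.10, SE 0.05) and WM (-0.67, SE 0.05).

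Grin2c encodes a glutamate-binding subunit with weak magnesium block, best known from cerebellar granule cells and the thalamus. It was at 129, 122, 146 and 84.2 CPM in the Prkcd area of the thalamus, the highest of the 20 areas in 4 of 4 sections. The reticular area (105, 114, 121 and 69 CPM) and the L1 and meninges area (95.6, 109.9, 82.3 and 68.8 CPM) came next, and their ranges overlapped with it. In each of these 3 areas HF 2 was the lowest section. In CA1 the level was 30.8, 16.5, 29.6 and 13.5 CPM, and the mean there was below every other area but the choroid plexus. The HP matrix, at 88.9, 76, 79.3 and 55.5 CPM, did not overlap the next area in the order, the striatum. Between regions Grin2c was higher in TH (log2 fold change 1.31, SE 0.06, edgeR adjusted p = 1.22e-18) and lower in HY (-0.67, SE 0.07). The summed CPM of 12 listed astrocyte markers was high in the HP matrix too, from 6381 to 7139.8 CPM over the sections, against 1876 to 2635 CPM in CA1. Over 19 areas the log2 level of Grin2c and that summed level had a Pearson r of 0.72, a description over areas that share sections and neighbouring spots, and their part in the level was not tested.

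Grin2d, whose subunit gives slow currents and is known from thalamus, brainstem and interneurons, had 4619 UMIs in all. It was at 46.5, 47.2, 49.6 and 58.1 CPM in the Gbx2 area of the thalamus, above all other areas in 4 of 4 sections and with no overlap with the next, the hypothalamus, at 28.8, 33.8, 37.3 and 36.8 CPM. In CA1 it was at 9.49, 3.66, 6.84 and 6.13 CPM. Between regions it was higher in TH (log2 fold change 1.30, SE 0.07, edgeR adjusted p = 1.52e-16) and HY (0.97, SE 0.08) and lower in STR (-0.89, SE 0.16) and WM (-0.68, SE 0.12). It was also called lower in CTX (-0.35, SE 0.08) and HP (-0.35, SE 0.10), but without section HF 2 both calls were lost, at -0.25 and -0.28.

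Grin3a encodes a glycine-binding subunit that lowers calcium entry and is known to be high in the young brain. Its leading areas were OLF (115, 128, 123 and 122 CPM), the Gbx2 area of the thalamus (123, 115, 101 and 131 CPM), the medial habenula (113, 109.9, 121 and 122 CPM) and the hypothalamus (118, 119, 121 and 104 CPM). These 4 areas overlapped, and OLF was the highest of the 20 in 1 of 4 sections. CA2-3 was low, at 24.7, 21.5, 19.4 and 21 CPM. Between regions Grin3a was higher in HY (log2 fold change 0.89, SE 0.05, edgeR adjusted p = 3.91e-16) and TH (0.64, SE 0.05), and lower in STR (-0.75, SE 0.09) and HP (-0.64, SE 0.06).

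Grin3b, the other gene of its kind, had 52, 32, 27 and 19 UMIs in the 4 sections, 130 in all, which is 0.619 CPM (exact Poisson 95% interval 0.517 to 0.735, counting error only). It passed the filter on low counts in the whole section alone. The highest mean level was in the medial habenula, with 6, 2, 5 and 3 UMIs, or 2.59 CPM pooled (1.48 to 4.21). The L1 and meninges area held 0 UMIs, with an upper limit of 0.682 CPM by the same interval. The choroid plexus also held 0 UMIs, with an upper limit of 2.21 CPM. Its gene overlaps Tmem259, which was also the gene most like it over the areas. The sources used here do not give the probes' positions, so signal shared between the 2 genes was not tested.

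**Figure D2:**
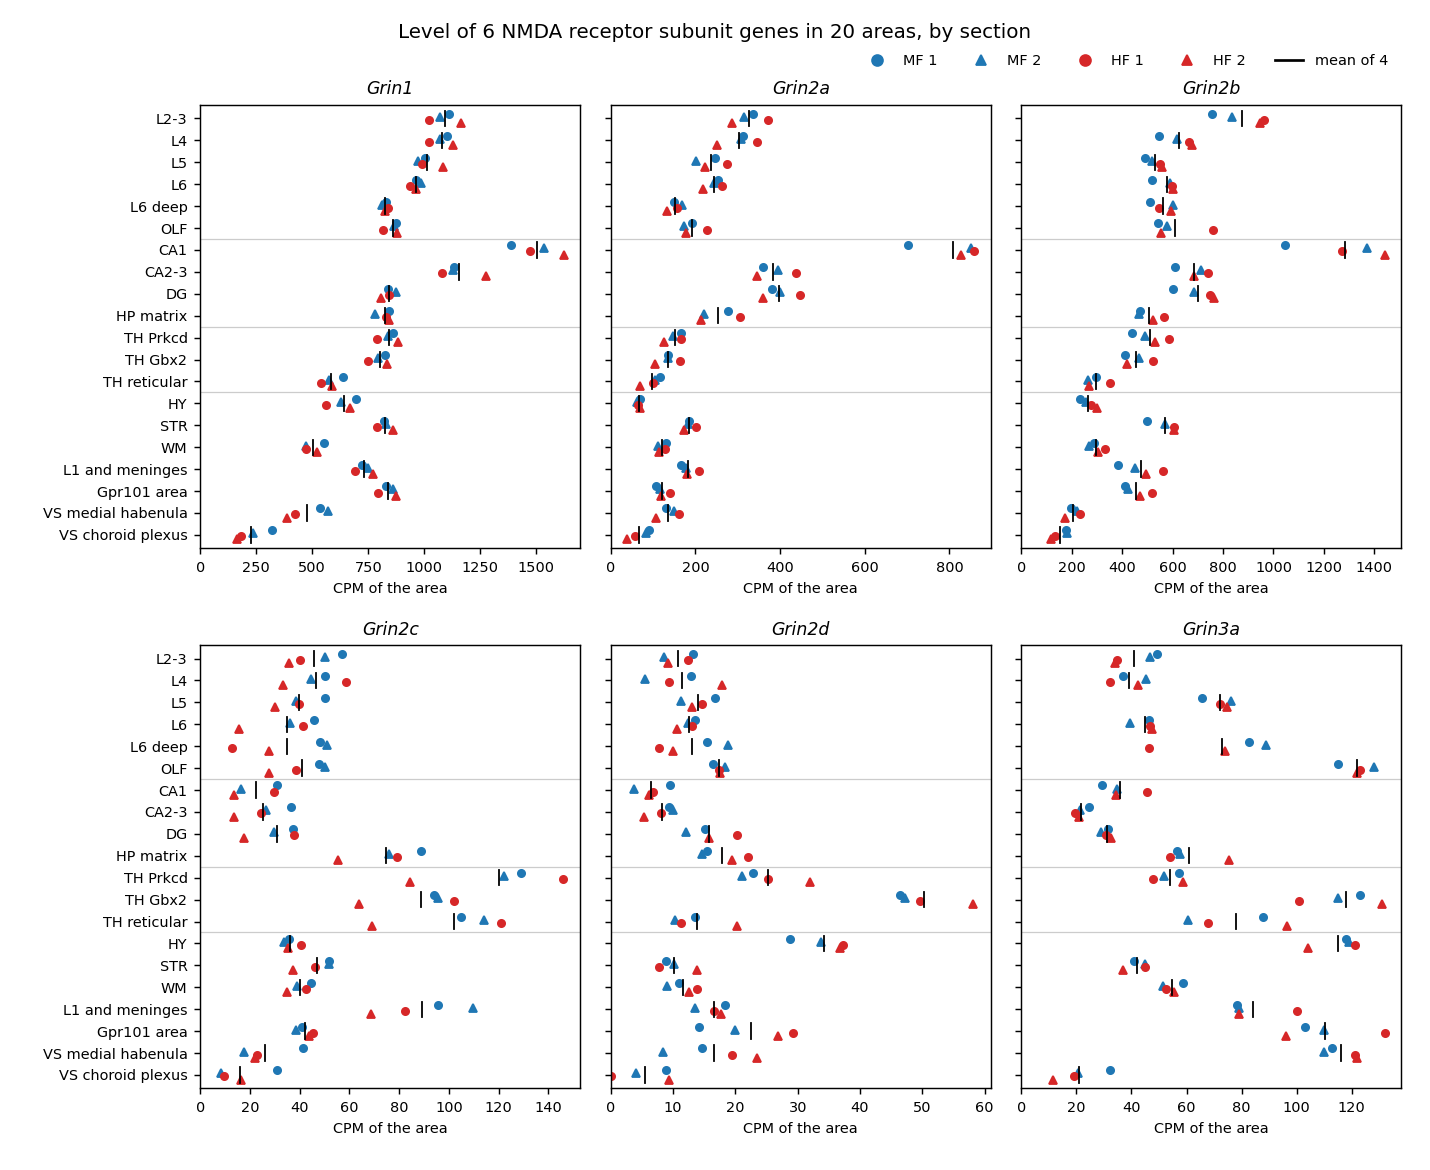
CPM of 6 members (panels, each with its own axis from 0) in 20 areas, with 1 point per section and a bar for the mean of 4. Grin1, Grin2a and Grin2b peak in CA1, Grin2c in the Prkcd area of the thalamus and Grin2d in its Gbx2 area, while Grin3a is highest in OLF, the Gbx2 area, the medial habenula and the hypothalamus.

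Taken over the 6 regions, 26 of 36 tests of a member were called at an adjusted p under 0.05 and at least 1.2-fold, 12 higher and 14 lower. Many genes differed between regions, and the members' counts are to be read against that background. Of 6 members tested, 4 were called in CTX, 5 in HP, 4 in TH, 6 in HY, 3 in STR and 4 in WM. Of all features tested, 40.2% were called in CTX, 30.1% in HP, 35.4% in TH, 43.4% in HY, 21.7% in STR and 40.7% in WM. HY and HP showed opposite signs for 5 members. In HY, Grin1, Grin2a, Grin2b and Grin2c were lower while Grin2d and Grin3a were higher. In HP, Grin1, Grin2a and Grin2b were higher while Grin2d and Grin3a were lower. These tests rest on sums from the same 4 sections, so their p-values describe these sections.

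Within the cortex, 13 of 36 tests were called, and the share of all features called was 21% in L2-3, 17.3% in L4, 12.2% in L5, 12.7% in L6, 13.3% in deep L6 and 18.6% in OLF. Grin2b was at 757, 834, 963 and 948 CPM in L2-3 and at 545, 619, 667 and 677 CPM in L4, and these ranges did not overlap. Upper and deep layers differed in the make-up of the members. Against the mean of the other cortical areas, L2-3 had higher Grin2b (log2 fold change 0.59, SE 0.04) and Grin2a (0.57, SE 0.04) and lower Grin3a (-0.61, SE 0.09). L4 had higher Grin2a (0.46, SE 0.04) and lower Grin3a (-0.75, SE 0.09), and L6 had lower Grin3a (-0.49, SE 0.08). Deep L6 had lower Grin2a (-0.76, SE 0.07) and Grin1 (-0.28, SE 0.04), and OLF had higher Grin3a (1.16, SE 0.07) and lower Grin2a (-0.39, SE 0.05). OLF and deep L6 thus differed from the upper layers by less Grin2a, and the Grin3a calls had both signs. The remaining calls were lost when single sections were left out. Grin3a in L5 (0.28) was lost without HF 1 and without HF 2, at 0.25 each time, and Grin3a in deep L6 (0.42) was lost without MF 1, at 0.33. Grin2d in OLF (0.43) was lost without MF 2 (0.32), without HF 1 (0.42) and without HF 2 (0.42).

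Within the hippocampus, 17 of 24 tests were called, against 29.8% of features in CA1, 33.4% in CA2-3, 41.9% in DG and 39.2% in the HP matrix. The members split between the CA1 cell layer and the HP matrix. In CA1, Grin2a (log2 fold change 1.31, SE 0.06, edgeR adjusted p = 1.30e-33), Grin2b (1.09, SE 0.05) and Grin1 (0.75, SE 0.04) were higher, and Grin2c (-0.72, SE 0.17) was lower. In the HP matrix, Grin2c (1.45, SE 0.11), Grin3a (1.02, SE 0.11) and Grin2d (0.77, SE 0.21) were higher, and Grin2a (-1.01, SE 0.06), Grin2b (-0.80, SE 0.05) and Grin1 (-0.52, SE 0.05) were lower. CA2-3 had higher Grin1 (0.34, SE 0.05) and lower Grin3a (-0.69, SE 0.16), and DG had lower Grin1 (-0.57, SE 0.05). The call of Grin2d in CA1 (-0.80) was lost without MF 2 (-0.67), HF 1 (-0.73) or HF 2 (-0.76). In DG, Grin3a (-0.35) was lost without MF 1 (-0.39), MF 2 (-0.33) or HF 2 (-0.34), Grin2c (-0.37) without MF 1 (-0.29), and Grin2b (-0.27) without MF 2 (-0.26).

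Within the thalamus, 12 of 18 tests were called, against 15.1% of features in the Prkcd area, 25.6% in the Gbx2 area and 27.7% in the reticular area. The Prkcd area had higher Grin2b (log2 fold change 0.52, SE 0.05), Grin2a (0.44, SE 0.06), Grin2c (0.39, SE 0.05) and Grin1 (0.35, SE 0.04) and lower Grin3a (-0.80, SE 0.06). The Gbx2 area showed the reverse for Grin3a (0.81, SE 0.06), together with higher Grin2d (1.36, SE 0.09) and lower Grin2c (-0.33, SE 0.05). The reticular area, whose neurons are GABAergic, had lower Grin2d (-1.26, SE 0.14), Grin2b (-0.72, SE 0.06), Grin2a (-0.54, SE 0.08) and Grin1 (-0.51, SE 0.04). All 12 calls were kept when any 1 section was left out.

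The balance of Grin2a against Grin2b was followed as the log2 ratio of their UMIs, in which a fixed difference in probe efficiency cancels between areas. The ratio was -0.72, -0.83, -0.75 and -1.03 in HP, -1.10, -1.41, -1.24 and -1.57 in CTX, and -1.74, -2.04, -2.09 and -2.11 in HY. It was higher in HP than in CTX by 0.38, 0.58, 0.50 and 0.54, in 4 of 4 sections. Of 19 areas, the medial habenula had the highest mean (-0.60), followed by CA1 (-0.66), DG (-0.82) and CA2-3 (-0.84), and the hypothalamus had the lowest. CA1 exceeded the hypothalamus by 1.17, 1.35, 1.52 and 1.31, that is by 1.34 ± 0.15 (SD, n = 4). Within the cortex, L4 (-1.05) exceeded L2-3 (-1.42) by 0.36, 0.40, 0.43 and 0.29 and deep L6 (-1.89) by 0.97, 0.82, 0.85 and 0.73. With 4 sections an exact sign test cannot give a p under 0.125, so these orders are given without a test. Neighbouring areas in the order overlapped in range throughout.

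**Figure D3:**
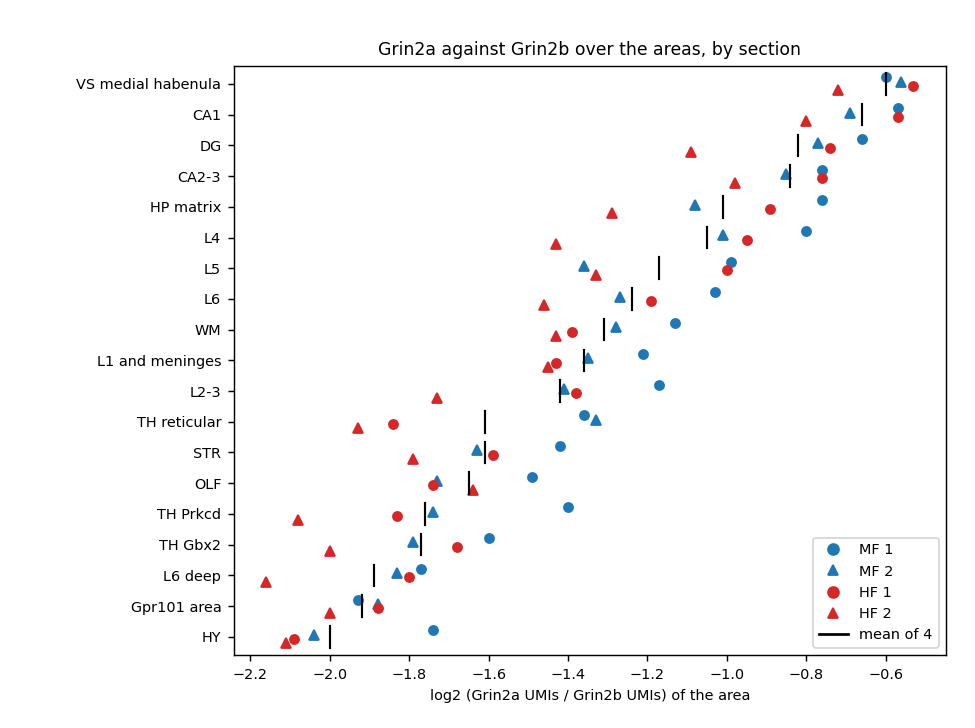
The log2 ratio of Grin2a to Grin2b UMIs in 19 areas, sorted by the mean of 4 sections (bar), with 1 point per section. The hippocampal areas and the medial habenula sit at the top and the hypothalamus at the bottom, and HF 2 lies left of the other sections in most areas.

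The make-up of all Grin2 UMIs varied between areas. Grin2a made up 38.2 ± 1.56% (SD, n = 4) in CA1, 29.7 ± 2.86% in the HP matrix, 18.7 ± 2.4% in the Prkcd area and 16.6 ± 1.61% in the hypothalamus. Grin2c made up 20 ± 2.89% in the reticular area of the thalamus, its highest mean share, and 14.9 ± 2.68% in the Prkcd area. It made up 12.1 ± 1.62% in the Gbx2 area and 11.9 ± 3.04% in the L1 and meninges area. In the HP matrix it made up 8.8 ± 1.61% and in CA1 1.1 ± 0.535%. Grin2d made up 8.51 ± 0.463% in the hypothalamus, 6.99 ± 1.35% in the Gbx2 area and 0.32 ± 0.155% in CA1. Grin2b made up 63.3 ± 4.36% in the Prkcd area, 65.9 ± 1.88% in the hypothalamus and 60.3 ± 2.15% in CA1. Its mean share was lowest in the medial habenula (53.5 ± 1.8%) and highest in deep L6 (73.8 ± 3.33%). These shares carry the probes' efficiencies and are read for their change between areas. Unlike the log2 ratio, a share does not cancel the efficiencies, so the size of its change depends on them as well.

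The patchiness of each member was also visible in the deposited Moran's I, a score that grows when neighbouring spots hold like values and nears 0 for a gene without spatial pattern. Grin2a scored 0.419, 0.246, 0.279 and 0.238, Grin2b 0.378, 0.283, 0.229 and 0.291 and Grin1 0.305, 0.234, 0.196 and 0.249. In every section under 4% of the detected features scored above each of these 3 genes. Grin2c and Grin3a scored between 0.0901 and 0.186, Grin2d between 0.0906 and 0.109, and Grin3b between -0.00371 and 0.00464. MF 1, the deepest section, had the highest score of the 4 sections for each of the 7 members.

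The genes most like each member over 19 areas were ranked by the Pearson r of log2(CPM + 1) among 10220 genes. Grin1 was closest to Cyfip2 (0.97), B4galnt1 (0.96) and Ppp3cb (0.95), a catalytic subunit of calcineurin. Grin2a was closest to Cadm2 (0.98), Msra (0.97) and Zbtb18 (0.95), and Grin2b to Actr3b (0.96), Fam49a (0.95) and the calmodulin gene Calm2 (0.95). The profiles of the other members were less closely matched. Grin2c was closest to March2 (0.88), Btbd17 (0.86) and Aldh1a1 (0.86), Grin2d to Paqr7 (0.90), Sema4g (0.89) and Pcbd1 (0.87), and Grin3a to Resp18 (0.88), Mmab (0.86) and Gprasp2 (0.85). Grin3b, at its low counts, was closest to Tmem259 (0.87), Golph3l (0.84) and Hnrnpk (0.83). The areas share sections and neighbouring spots, so these r values describe likeness only.

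A list of 52 genes that act with the receptor was read beside the members. Of 15 scaffold proteins, such as Dlg4 and Shank1 of the postsynaptic density, 13 were called higher and 1 lower in CTX (median log2 fold change 0.62), and 15 of 15 were lower in HY (median -0.85). In HP 9 were higher and 1 lower, and in WM 2 were higher and 11 lower. Of 14 genes of the calcium response, 10 were higher and 0 lower in CTX, 9 higher and 1 lower in HP, 4 higher and 9 lower in HY, and 0 higher and 13 lower in WM. Of 9 trafficking genes, 6 were higher in CTX and 3 in HP with 0 lower in either. In HY 1 was higher and 4 were lower, and in WM 0 were higher and 4 lower. The 9 kinases and phosphatases of the receptor were split, with 2 higher and 1 lower in CTX and 3 higher and 2 lower in HP. For this group 0 were higher and 5 lower in HY, and 1 was higher and 5 lower in WM. Of 4 tested genes for the supply and uptake of the co-agonists glycine and d-serine, 3 were higher in HY and 1 was lower (median 0.55). Among these 4 genes, 1 was higher and 2 were lower in CTX and likewise in HP, and 1 was higher and 0 lower in WM. In TH, 5 scaffold genes were higher and 6 lower, against 2 and 8 of the calcium response and 1 and 3 of trafficking. There 4 kinases and phosphatases were higher and 1 lower, and 2 and 1 of the co-agonist genes. In STR these counts were 9 and 3 for scaffolds, 6 and 2 for the calcium response and 3 and 1 for trafficking. They were 4 and 0 for kinases and phosphatases and 1 and 2 for co-agonist genes. Of all features 40.2% were called in CTX, 30.1% in HP, 35.4% in TH, 43.4% in HY, 21.7% in STR and 40.7% in WM, in either direction. The medians of all features in these regions lay between -0.03 and -0.01.

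Between the diets, no member was called in any place tested. In the whole section 0 of 7 members were called, against 0% of features, and 1 member and 1020 of 14971 features had an unadjusted p under 0.05. In the 6 regions 0 of 36 tests were called, against 0.0296% of features in CTX, 0.324% in HP, 0% in TH, 0% in HY, 0.072% in STR and 0.00791% in WM. There 5 member tests and 6.5% of feature tests had an unadjusted p under 0.05. In 13 areas 0 of 76 tests were called, against 0.128% of features. There 12 member tests, 6 of them of Grin2c and 4 of Grin2b, and 6.02% of feature tests had an unadjusted p under 0.05. The region by diet test in edgeR asks whether the diet difference itself differs between regions. It covered CTX, HP, TH, HY and STR, without WM, and called 0 of 6 members and 0.0146% of features. The smallest p of that test was for Grin2c (edgeR adjusted p = 0.809). DESeq2 called 0 members as well. Leaving out HF 1 gave 12 member calls over these places and 3 in the region by diet test (Grin2a, Grin2b and Grin2c), leaving out HF 2 gave 4 and 0, and leaving out either MF section gave 0 of both, so the calls that appear rest on which HF section is kept. Calls over all features rose as well. Over the regions they went from 54 to 2722 without HF 1 and 1960 without HF 2, and over the whole section and the 13 areas from 179 to 3309 and 2554. With 2 sections a diet an exact permutation test of a single value cannot give a p under 0.333.

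Grin2b had a positive log2 fold change in each region and area tested. In CTX it was at 555, 627, 678 and 670.0 CPM and in HP at 593, 673, 725 and 759 CPM, and in both regions the HF sections lay above the MF sections. The log2 fold change of HF against MF was 0.21 in CTX (SE 0.08, edgeR adjusted p = 0.584) and 0.23 in HP (SE 0.09, adjusted p = 0.474). It was positive in 6 of 6 regions (0.11 to 0.23) and in 13 of 13 areas (0.06 to 0.28), regions and areas that share the same 4 sections. Without HF 1 the value in TH turned to -0.07. MF 1, the deepest section, was the lowest of the 4 for Grin2b in 5 of 6 regions and in 11 of 13 areas. Without MF 1 the Grin2b value was 0.12 in CTX, 0.14 in HP, 0.02 in TH, 0.16 in HY and 0.10 in STR. In the choroid plexus, which was too small to test, Grin2b was at 177, 181, 132 and 116 CPM, with HF below MF. Without HF 1 the value in HP was called (0.27, adjusted p = 0.0329), and without HF 2 those in OLF (0.43, adjusted p = 0.0162) and the Prkcd area (0.34, adjusted p = 0.00991) were called, with the lone HF section assumed to vary like the other group. In HP, 10 of 10 listed white matter markers were lower in HF, with a median log2 fold change of -0.56, and their summed level was 15892, 15395, 11304 and 10599.5 CPM. All 10 were also lower in L2-3 (median -0.77), where Grin2b had its largest log2 fold change of 0.28. In HY and WM, where Grin2b was at 0.23 and 0.18, the white matter median was -0.08 and -0.05, and none of the markers was called. The part of white matter content in the Grin2b values was not tested.

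Grin2c pointed the other way in all regions but one. It was at 49.4, 44.6, 41.4 and 28.7 CPM in CTX and at 55.8, 45.4, 49.4 and 29.3 CPM in HP. The diets did not overlap in CTX and overlapped in HP, and HF 2 was the lowest section in both. The log2 fold change was -0.44 in CTX (SE 0.15, edgeR adjusted p = 0.555) and -0.43 in HP (SE 0.18, adjusted p = 0.538). It was negative in 13 of 13 areas (-1.08 in deep L6 to -0.10 in L4) and 0.11 in HY. HF 2 was the lowest of the 4 sections in 5 of 6 regions and in 12 of 13 areas. Without HF 1, Grin2c was called in the whole section (-0.58, adjusted p = 4.02e-04), in CTX (-0.70), HP (-0.81) and TH (-0.64), in L6 (-1.45) and in the Prkcd (-0.56), Gbx2 (-0.58) and reticular (-0.66) areas. Without HF 2 the value in the whole section was 0.04 and no region was called, so the size and the sign there rest on HF 2. The 12 astrocyte markers had their lowest sum in HF 2 as well, at 4066, 3848, 4017 and 3540.4 CPM in CTX, and 0 of them were called between diets in any region. Over the areas, 1 marker was called lower in L2-3, where 0 of 12 were positive (median -0.18), and 1 in L5 (median -0.14), and Grin2c was at -0.53 and -0.43 in these areas. The part of astrocyte content was not tested. Without a filter on low counts the value in CTX was called (adjusted p = 0.0147).

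Grin2d was at 19.8, 20.8, 27.5 and 23.3 CPM in the whole section, with both HF sections above both MF sections. Its log2 fold change was 0.31 (SE 0.10, edgeR adjusted p = 0.696), and in TH it was 0.38 (SE 0.11, adjusted p = 0.878), from 31.9, 32.2, 42.6 and 41.5 CPM. TH pooled its areas in unequal parts. The Gbx2 area, where Grin2d was highest, held 348, 316, 393 and 320 spots, and the Prkcd area 308, 306, 198 and 204. Within the Gbx2 area alone the value was 0.18 (SE 0.13), within the Prkcd area 0.40 (SE 0.18) and within the reticular area 0.53 (SE 0.36). Grin2d was -0.10 in CTX and -0.81 in deep L6 (SE 0.50), and 4 of the 11 areas tested were negative. Without HF 2 the values in the whole section and in TH were called, at 0.42 (adjusted p = 0.0126) and 0.40 (adjusted p = 0.0181). The summed interneuron markers of TH were 937, 815, 621 and 1570.0 CPM, high in HF 2 and low in HF 1. The parts of the mix of areas and of interneuron content in the Grin2d values were not tested.

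Grin1, Grin2a and Grin3a had values near 0 in the whole section. Grin1 was at 835, 797, 747 and 843 CPM in the whole section (log2 fold change -0.05, SE 0.09), and its values lay between -0.12 and 0.04 over the 6 regions. In the medial habenula, which was not tested, Grin1 was at 533, 571, 423 and 386 CPM, with HF below MF. Of the other untested areas, HF was also below MF in the choroid plexus. The diets overlapped in the L1 and meninges area and the Gpr101 area. Grin2a was at 193, 175, 199 and 173 CPM (0.00, SE 0.10), with HF 1 the highest and HF 2 the lowest. Over the 6 regions Grin2a lay between -0.12 in TH and 0.12 in HP, and over the 13 areas between -0.56 and 0.13. The value of -0.56 was that of the reticular area, where Grin2a was at 116, 105, 98.7 and 70.1 CPM (SE 0.19, edgeR adjusted p = 0.807). In the Prkcd and Gbx2 areas it was -0.10 and -0.02. Without HF 1 Grin2a was called lower in TH (-0.48), the Gbx2 area (-0.38) and the reticular area (-0.70). Grin3a was at 74.1, 78.7, 82.4 and 74 CPM (0.02, SE 0.08), and in L2-3 at 49.2, 46.6, 34.7 and 33.9 CPM (-0.48, SE 0.17, adjusted p = 0.385). Grin3b had a log2 fold change of -0.13 with an SE of 0.34, which leaves its size open at these counts.

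The HF sections lay wholly above or below the MF sections for 2 of 7 members in the whole section, where 39.6% of features did so. Over the 6 regions this held in 11 of 36 tests, against 36.6% of features. Grin2b accounted for 5 of them, all higher in HF, and Grin2d for 3, all higher, while Grin2c was lower in 2 and Grin1 in 1. Over 13 areas it held in 22 of 76, against 35%. These shares were near or below those of all features.

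**Figure D4:**
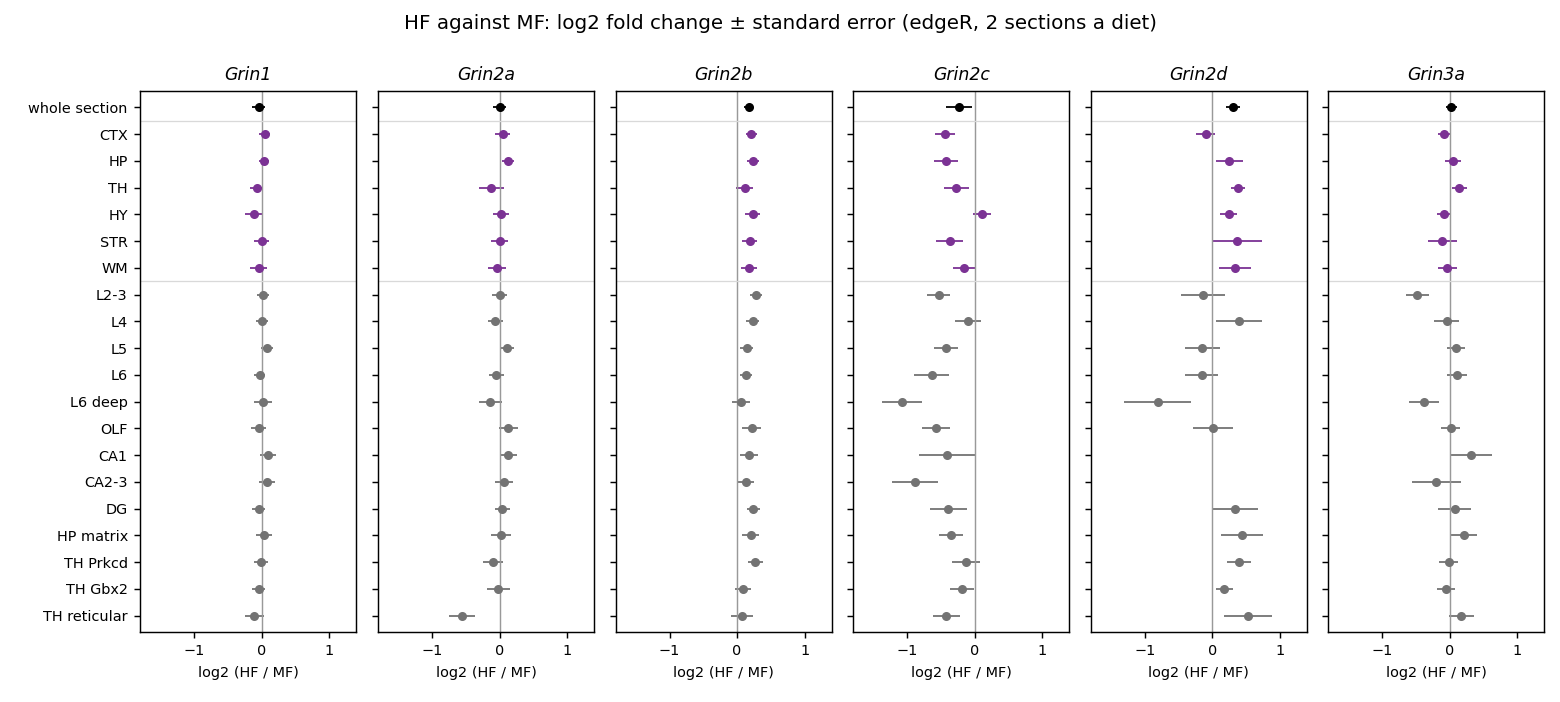
Log2 fold change of HF against MF with its standard error, from edgeR, for 6 members in the whole section (black), 6 regions (purple) and 13 areas (grey). Grin2b lies right of 0 and Grin2c mostly left of 0, and no value was called.

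The difference of HF minus MF in the Grin2a to Grin2b log2 ratio lay between -0.26 and -0.12 over the 6 regions. The diets overlapped in 4 of the 6 regions, all but HY and WM. In CTX the MF sections themselves were at -1.10 and -1.41, a gap larger than the difference of -0.16 between the diets. In WM the MF sections were closer together, at -1.13 and -1.28, than the diets (-0.20), and in HP, at -0.72 and -0.83, the gap was about as large as the difference of -0.12. Over the 13 areas the difference ran from -0.54 to 0.01. The diets did not overlap in the reticular area, at -1.36, -1.33, -1.84 and -1.93, nor in the Prkcd area, at -1.40, -1.74, -1.83 and -2.08 (difference -0.38). In the Prkcd area the MF sections themselves lay nearly as far apart as the diets. In the other tested areas the diets overlapped. These differences are given without a test and without a share over other gene pairs.

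Of the 52 genes that act with the receptor, 0 were called between diets in the whole section or in any of the 6 regions, and 2 had an unadjusted p under 0.05 in the whole section by edgeR. Their median log2 fold change was 0.03 there, with 34 of 52 positive, against a median of 0.00 over all features. Camk2d, a calcium/calmodulin-dependent kinase, was at 212, 230.0, 192 and 188 CPM, with both HF sections below both MF sections (-0.23, SE 0.08, edgeR adjusted p = 0.696). Shank1, a scaffold of the postsynaptic density, was at 97.1, 89.1, 106 and 102 CPM (0.15, SE 0.08, adjusted p = 0.726). Slc6a9, the glycine transporter that clears the co-agonist, was at 127, 131, 121 and 112 CPM (-0.16, SE 0.07, adjusted p = 0.726). Neto1, an auxiliary protein of glutamate receptors, had a log2 fold change of 0.15 (SE 0.10, adjusted p = 0.766), and Cdk5r1, the activator of the kinase Cdk5, one of 0.13 (SE 0.07, adjusted p = 0.729).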

How the data were processed

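Visium-FFPE libraries of 4 coronal brain sections were used, 2 of MF and 2 of HF pups. The deposited spot matrices hold UMI counts that the authors made with Space Ranger on mm10, and the deposited Moran's I is a score from the same software, per the submitters' processing notes. Spots with at least 500 UMIs and 250 genes were kept. Spots were clustered on 2000 variable genes (30 components, 20 neighbours, Leiden resolution 1), with members, listed pathway genes and immediate early genes left out. Regions and most areas were named from marker lists when at least 3 markers led them. The Prkcd, Gbx2 and Gpr101 areas were each named by a single leading gene. The HP matrix took hippocampal clusters with few markers of CA1, CA2-3 or DG. A cluster led by Igfbpl1 and Sox11, with 2 DG markers, was joined to DG. Doublets were not called, as spots are not cells. UMI counts were summed per section and area and tested over all features with edgeR 4.0.16 (TMM, filterByExpr, quasi-likelihood, Benjamini-Hochberg), and a call needs an adjusted p under 0.05 and 1.2-fold. Areas were tested only within CTX, HP and TH, and needed 20 spots in every section. The L1 and meninges area, the Gpr101 area, the medial habenula and the choroid plexus were described but not tested. Named pathway genes are the 1 gene of each group with the smallest p. Members and lists were chosen with earlier results of these data known. Same-numbered sections were checked for pairing, and their deviations from the mean of their diet correlated at r = -0.165. With 2 sections a diet these deviations are equal and opposite, so this value cannot decide whether the number pairs sections. Alternatives were DESeq2 1.42.0, library size alone, no filter, a replicate block, thinning to 5000 UMIs, resolution 0.5, each section left out and a Wilcoxon test over spots. Scripts were tested on simulated data. Depth runs from 34983708 to 90098381 UMIs a section, and Poisson intervals cover counting error only.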

Additional observations from a re-analysis of the deposited data

How the results depend on the processing

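Between regions, 26 member calls became 24 to 27 with 1 section left out, and between areas 42 became 38 to 41, with no called sign reversed under any alternative. Of the 17 hippocampal calls, 14 remained with DESeq2, 13 with library size alone, which ended those of Grin1 in CA2-3 and of Grin2b, Grin2c and Grin3a in DG, and 8 with thinning, and of the 13 cortical calls 9 remained with thinning. At resolution 0.5 the unit called HP held 19 to 30 spots a section, against 254 to 351, so it was a small part of the hippocampus. There Grin2c, not called in HP or WM before, was called lower in HP (-1.21) and higher in WM (0.32, against -0.26). Between diets, member calls went from 0 to 1 without a filter on low counts (Grin2c in CTX), 0 to 12 with 1 section left out, 15 by a Wilcoxon test over spots and 7 over thinned spots, tests in which spots stand as replicates. The region by diet test gave 0 to 3 with 1 section left out. All genes called over the regions numbered 54, against 356 without a filter, 16 at Leiden resolution 0.5, 9134 by the Wilcoxon test, 1645 on thinned spots, and 11 to 2722 with 1 section left out (fewest without MF 1, most without HF 1). With the replicate block, which joins sections of the same number, they were 176, and 0 members were called. A crossed pairing, added after seeing the data, gave 278 and 0. The spread of the Grin2a to Grin2b ratio over regions was 1.16, and 1.36 at resolution 0.5, with the same small HP unit.

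Of 464 alternative log2 fold changes of members between diets, 50 reversed sign, 34 of them with 1 section left out. In the whole section these were Grin2a without a filter (-0.00) and Grin3a thinned (-0.03). By region they were Grin3a in TH (-0.05), Grin2c in HY (-0.04), Grin3a in STR (0.17) and Grin2a in WM (0.01), all thinned, and Grin3a in WM at resolution 0.5 (0.07). In STR, Grin1 was at 0.00 by DESeq2 and by library size, 0.03 thinned and 0.01 at resolution 0.5, and Grin2a at 0.01 by DESeq2 and by library size, 0.00 without a filter, 0.02 with the replicate block and 0.04 at resolution 0.5. With 1 section left out, values that crossed 0 ranged in the whole section from -0.15 to 0.05 for Grin1, -0.09 to 0.09 for Grin2a, -0.58 to 0.04 for Grin2c, -0.04 to 0.09 for Grin3a and -0.52 to 0.24 for Grin3b. They ranged in CTX from -0.03 to 0.10 for Grin1, -0.13 to 0.22 for Grin2a and -0.22 to 0.04 for Grin3a, and in HP from -0.04 to 0.10 for Grin1 and -0.04 to 0.12 for Grin3a. In TH they ran from -0.48 to 0.15 for Grin2a, -0.07 to 0.26 for Grin2b and -0.64 to 0.01 for Grin2c, and in HY from -0.26 to 0.01 for Grin1, -0.06 to 0.10 for Grin2a and -0.18 to 0.00 for Grin3a. In STR they ran from -0.07 to 0.06 for Grin1, -0.08 to 0.13 for Grin2a, -0.27 to 0.58 for Grin2d and -0.20 to 0.09 for Grin3a, and in WM from -0.14 to 0.05 for Grin1, -0.14 to 0.08 for Grin2a, -0.29 to 0.00 for Grin2c and -0.11 to 0.05 for Grin3a. The causes were not tested. With 2 sections a diet and HF 1 the shallowest, these data set wide limits on Grin3b and, in the smaller areas, on Grin2d.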

Other observations

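The DG spots held a part led by Igfbpl1, Sox11, Neurod1 and Dcx, genes known from immature neurons, with 18, 20, 22 and 25 spots in MF 1, MF 2, HF 1 and HF 2. The rest of DG had 23, 18, 21 and 34 spots. Grin3a was at 40.7, 33.5, 43.1 and 39 CPM in the Sox11 part and at 23.3, 22.5, 16.7 and 26.8 CPM in the rest, so it was higher in the Sox11 part in 4 of 4 sections and the ranges did not overlap. Grin2d had the same order in 4 of 4 sections, at 16.3, 15.9, 26.9 and 20.9 against 14, 6.75, 12.5 and 10.7 CPM, from 3 to 16 UMIs a value. Grin2a and Grin2b had the opposite order. Grin2a was at 271, 317, 392 and 274 CPM in the Sox11 part and at 482, 517, 511 and 440.3 CPM in the rest, and Grin2b at 508, 628, 665 and 635 against 688, 765, 843 and 891 CPM. Grin1 was at 749, 812, 814 and 769.7 against 919.8, 963, 875 and 846 CPM. For these 3 genes the ranges of the 2 parts did not overlap. Each part had a section under 20 spots, so they were joined as DG in the tests and these differences were not tested.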
